A study of Mus musculus with 62 samples.

Results

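White adipose tissue of mice that carried melanoma cells which do not cause cachexia (NCAC) was compared with that of mock-injected mice 8 weeks after injection. Cachexia is the loss of fat and muscle that accompanies some cancers. Of the 62 RNA sequencing libraries of the series, 10 enter this comparison, 5 NCAC and 5 mock, chosen by arm and week from the sample descriptions. No measured value was used in the choice. The other groups used below are the 7 libraries of mice with melanoma cells that cause cachexia (CAC) at 8 weeks, the 5 CAC libraries at 6 weeks, and the 5 NCAC and 5 mock libraries at each of 6 and 2 weeks. All mice are labelled female and 2 months old. The series record calls them athymic nude mice, which lack most T cells but keep B cells, NK cells and macrophages, whereas the strain tag of every sample names C57BL6/J. The treatment field does not tell the arms apart, since it names cachectic cells throughout, so the arm rests on the descriptions. The fat depot, the melanoma lines and the content of the mock injection are not stated in the labels.

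Adipocytes of white fat store triglyceride and release it by lipolysis, in which Pnpla2 (adipose triglyceride lipase) and Lipe (hormone-sensitive lipase) cut the fatty acids off. They also secrete hormones such as leptin (Lep) and adiponectin (Adipoq). In wasting animals white fat is known for leptin loss, raised lipolysis, an acute-phase response, glucocorticoid-induced genes and, in some models, thermogenic genes such as Ucp1. An arm labelled as carrying non-cachectic melanoma cells allows carrying such cells to be compared with mock injection. The CAC and NCAC arms carry different melanoma cells, so wasting and the kind of cell cannot be told apart between them.

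The values are TPM, which corrects transcript abundance for gene length, and each library sums to 1000000, so the read depth is unknown and no counting interval can be given. In the 10 libraries 12379 to 14395 genes reached 1 TPM. The labelled tissue carried its defining marker, since Adipoq stood at 3650 to 6585 TPM in NCAC and 1789 to 5904 TPM in mock libraries. Mock replicate 2 and NCAC replicate 3 correlated least with the other libraries, with a median Spearman correlation over genes of 0.9158 and 0.9345, against 0.9421 to 0.9676 for the other 8. No pair of libraries was identical. Mitochondrially encoded genes took 31.4% ± 3.56 of the TPM in NCAC and 33.3% ± 8.49 in mock libraries (SD, n = 5 each, exact two-sided permutation p = 0.706, smallest possible p 0.00794).

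No single gene met the call threshold between NCAC and mock fat at 8 weeks. Of 14576 genes tested with limma on log2(TPM + 1), 0 were called at an adjusted p under 0.05 (0%), and the smallest adjusted p was 0.9995. An unadjusted p under 0.05 was found for 181 genes (1.24%), 97 with a higher and 84 with a lower level in NCAC fat (0.665% and 0.576%). The median log2 change over all genes was -0.05, and 5413 genes had a positive change against 9163 with a negative one. A log2 change of at least 1 was measured for 24 genes upward and 235 downward, none of them called. The 5 NCAC libraries all lay above the 5 mock libraries for 13 genes (0.0892%) and all below them for 10 (0.0686%).

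The intervals say how large a change these 10 libraries leave room for. The median standard error was 0.212 on the log2 scale. The 95% interval of the change lay within 2-fold in either direction for 11846 genes (81.3%), and for 7031 of the 8278 genes (84.9%) that reached 10 TPM in the group with the higher mean. Spread within a group was larger in mock fat, where the median SD of a gene was 0.358 on the log2 scale, than in NCAC fat with 0.297. The SD was larger among NCAC libraries for 33.5% of genes. In bulk tissue a smaller share of cells of a type and less RNA per cell cannot be told apart, which holds for every level below.

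**Figure D1:**
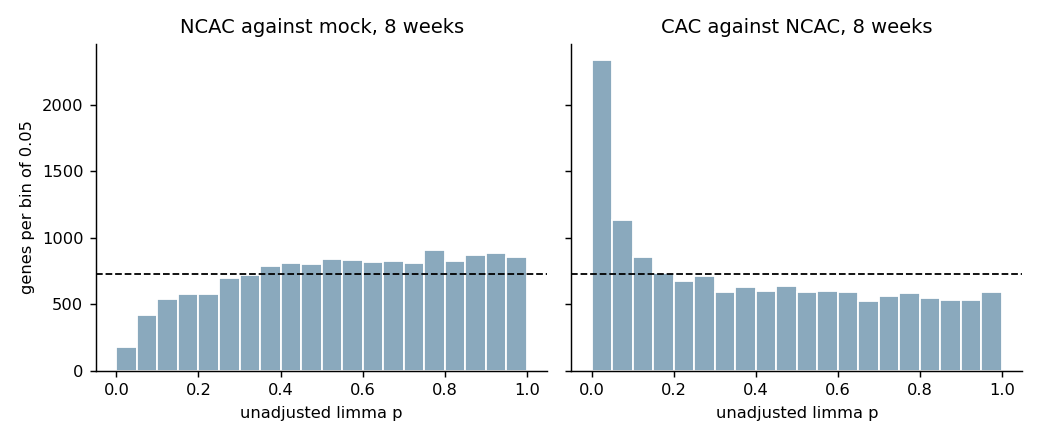
Number of genes in each p-value bin of 0.05 from limma, unadjusted, for NCAC against mock fat (left) and CAC against NCAC fat (right) at 8 weeks; the dashed line is the height of an even spread. NCAC against mock has 181 genes in the first bin, under the line, and CAC against NCAC has 2342.

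Among genes at 10 TPM or more in the higher group, Acaa1a, a peroxisomal thiolase of fatty acid oxidation (chromosome 9, 119339676 to 119350299 on GRCm38), had the smallest unadjusted p on the higher side. It measured 70.9, 82.3, 90.3, 80.9 and 72.6 TPM in NCAC and 44.1, 66.0, 57.7, 57.6 and 45.7 TPM in mock libraries. The groups do not overlap, and the log2 change was 0.55 (SE 0.14), yet the gene was not called over 14576 genes. Its near copy Acaa1b was also measured, and how reads were divided between the copies is not stated. Fam214a was 42.4 to 57.9 TPM in NCAC and 27.6 to 40.0 TPM in mock libraries, again without overlap, with a log2 change of 0.50 (SE 0.13). Apoc3, an apolipoprotein of triglyceride-rich particles made mainly by liver, was 7.87, 4.04, 33.0, 4.12 and 8.16 TPM in NCAC and 2.88, 2.52, 3.91, 1.47 and 3.99 TPM in mock libraries. NCAC replicate 3 was far above the rest, and the lowest NCAC library barely cleared the highest mock library.

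The other 9 genes with the smallest p on the higher side had log2 changes from 0.38 to 1.87, and their groups overlapped. They include Bscl2 (seipin, needed for lipid droplet formation) at 0.38 (SE 0.14), Fcor, a repressor partner of the insulin-regulated factor Foxo1 in adipocytes, at 0.55 (SE 0.20), and Nnmt, a nicotinamide methyltransferase abundant in fat, at 0.77 (SE 0.27). Selenbp1, a methanethiol oxidase, had 0.54 (SE 0.20). H2-Q2, a class I gene of the histocompatibility locus, had the largest value at 1.87 (SE 0.70) with 6.69 to 27.8 TPM in NCAC and 0.132 to 14.1 TPM in mock libraries. Marc2, Rpl37rt (annotated as a transcribed processed pseudogene), Sox6os and Ifrd1 complete the set.

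On the lower side Ppp1r3c, which directs a phosphatase to glycogen, was 44.7, 24.0, 16.4, 22.9 and 38.0 TPM in NCAC and 30.6, 58.2, 83.6, 58.9 and 97.8 TPM in mock libraries. Mock replicate 1 lay among the NCAC values, and the log2 change was -1.13 (SE 0.33). Dysf (dysferlin, a membrane repair protein) was 17.6 to 20.4 TPM in NCAC and 21.5 to 36.0 TPM in mock libraries, without overlap, with a log2 change of -0.46 (SE 0.15). Fbp2, the muscle form of fructose bisphosphatase, was 0.985 to 2.88 TPM in NCAC libraries, against 2.11 to 20.6 TPM in mock libraries, where replicates 3 and 5 hold the high values. Klf10, a transcription factor induced by TGF-beta, had -0.61 (SE 0.19), Dusp10, a phosphatase of stress kinases, -0.57 (SE 0.19), and Pprc1, a coactivator related to Ppargc1a, -0.62 (SE 0.21). Nabp1 had -0.79 (SE 0.26) and Fam63b -0.44 (SE 0.15).

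The remaining 4 of the 12 genes on the lower side were antibody genes. Antibody heavy and light chains, and the joining chain Jchain that links them into multimers, are made by B cells and above all by plasma cells. Jchain (chromosome 5, 88519809 to 88527891 on GRCm38) was 2.92, 1.70, 1.03, 0.908 and 11.5 TPM in NCAC and 43.8, 22.0, 22.7, 3.00 and 7.96 TPM in mock libraries. Mock replicates 1 to 3 lay above every NCAC library, while mock replicates 4 and 5 lay below NCAC replicate 5, and the log2 change was -2.15 (SE 0.68). Ighg2b, an IgG heavy chain, was 0.0221 to 0.168 TPM in NCAC and 0.770 to 46.2 TPM in mock libraries, without overlap, and had a log2 change of -2.28 (SE 0.73). Ighg2c had -3.29 (SE 0.89) and Ighg3 -3.66 (SE 1.15), both with overlap. The kappa light chain Igkc was 60.5, 41.3, 39.7, 16.3 and 143 TPM in NCAC and 826, 250, 372, 51.4 and 70.8 TPM in mock libraries, a log2 change of -2.02 (SE 0.77).

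All antibody genes, a group chosen after these values were seen, were then read together as a description. Of 99 tested, 94 had a negative log2 change, with a median of -0.77, and 18 had an unadjusted limma p under 0.05, all lower, but 0 were called. Over all 14576 genes, 9163 had a negative change and 0.576% had an unadjusted limma p under 0.05 on the lower side. The filter used the mean over all 62 libraries, so an antibody gene high in a few mock libraries alone could pass it. The 99 may therefore lean to the negative side by selection, and their counts are no test. Their summed level was 201, 193, 139, 90.8 and 570 TPM in NCAC libraries, against 2435, 1037, 1164, 206 and 280 TPM in mock libraries. The sums overlap, because mock replicates 4 and 5 lay within the NCAC range. IgM (Ighm) had a log2 change of -0.33 (SE 0.52) and IgD (Ighd) of 0.19 (SE 0.30). The B cell marker list, which holds Jchain, Igkc and Ighm as well as surface proteins, had a median of -0.27 over 9 tested genes of 11, with 8 negative, 0 called and 2 (Jchain and Igkc) at an unadjusted limma p under 0.05. Its surface receptor part Cd79a was the 1 positive member at 0.09 (SE 0.42), the surface protein Ms4a1 had -0.05 (SE 0.32), and Mzb1, a chaperone of antibody secretion, had -0.66 (SE 0.41). Without mock replicate 1 the list's median was 0.00. Ighm, Ighd, Cd79a, Ms4a1 and Mzb1 were picked after their values were seen.

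**Figure D2:**
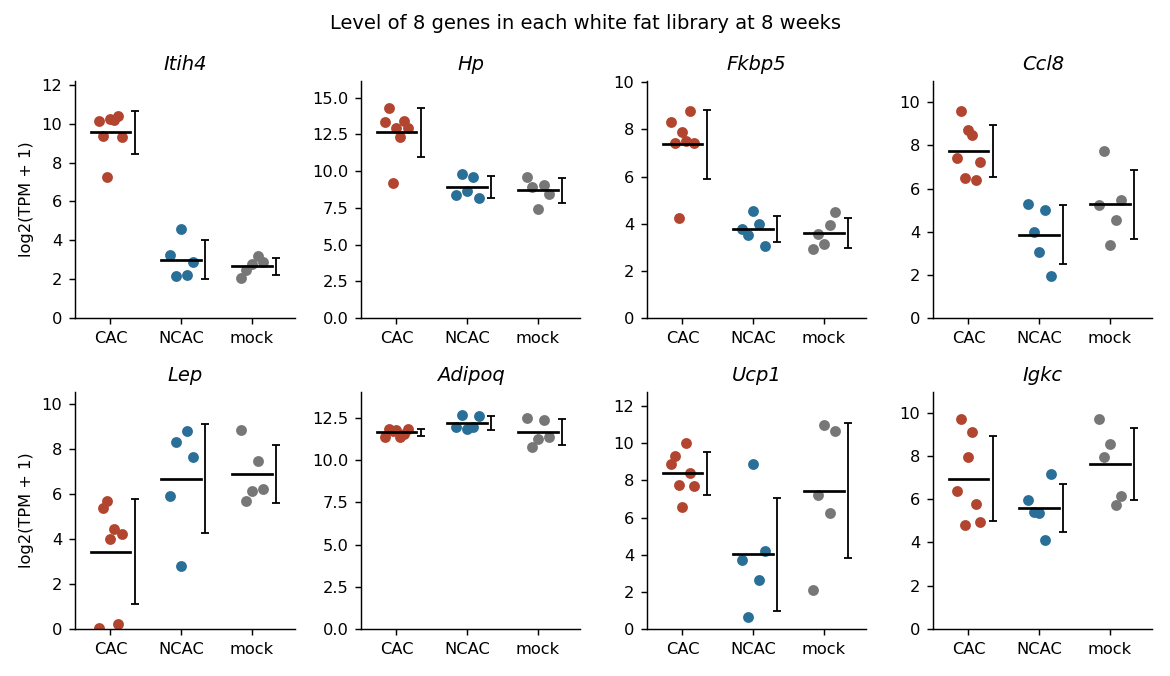
Level of 8 genes in log2(TPM + 1) at 8 weeks in CAC (n = 7), NCAC (n = 5) and mock (n = 5) libraries; points are libraries, lines are means and bars are SDs. NCAC and mock points overlap for every gene shown, while for Itih4 and Ccl8 all CAC points lie above all NCAC points.

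Adipocyte identity genes were the pathway list with the largest share of members on the positive side. Of 17 tested, 16 had a positive log2 change, with a median of 0.36, and 0 were called, with 2 at an unadjusted limma p under 0.05. Those were Retn, the hormone resistin, with 0.65 (SE 0.26), and Cfd (adipsin, a complement protease secreted by adipocytes), with 0.60 (SE 0.27). Retn was 2153 to 2701 TPM in NCAC and 1002 to 2602 TPM in mock libraries, so mock replicate 4 lay within the NCAC range. Adipoq averaged 4884 ± 1393 TPM in NCAC and 3613 ± 1848 TPM in mock fat (SD, n = 5 each), a log2 change of 0.54 (SE 0.36). The list's summed level was 69382 to 93524 TPM in NCAC and 36064 to 82681 TPM in mock libraries, and the lowest was mock replicate 2, the library with the highest smooth muscle, skeletal muscle and reproductive tract markers. Without it the list's median was 0.23.

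Leptin levels overlapped between the groups. Lep was 58.9, 310, 5.82, 443 and 196 TPM in NCAC and 460, 49.7, 69.2, 175 and 73.2 TPM in mock libraries. NCAC replicate 3 had the lowest and mock replicate 1 the highest value, the log2 change was -0.19 (SE 1.06), and the 95% interval ran from -2.52 to 2.14. This interval is wide, so changes of several fold in leptin cannot be told apart from none with these libraries. Oxtr, the oxytocin receptor, which rises with fat expansion in mice, had a log2 change of -1.46 (SE 0.97).

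None of the lipid storage and release genes was called. The lipolysis list had a median log2 change of 0.22 over 17 genes, 0 of them called and 0 at an unadjusted limma p under 0.05, and without mock replicate 2 its median was 0.06. Pnpla2 averaged 1773 ± 451 TPM in NCAC and 1529 ± 371 TPM in mock fat, a log2 change of 0.22 (SE 0.25) with a 95% interval from -0.32 to 0.76. Lipe had 0.40 (SE 0.23), Abhd5, the activator of Pnpla2, 0.40 (SE 0.21), and the beta-1 adrenergic receptor Adrb1 -0.60 (SE 0.28). The fatty acid synthesis list had a median of -0.02 over 19 genes, from -1.65 for Elovl3 (SE 1.17) to 0.33, with Fasn (fatty acid synthase) at 0.03 (SE 0.40), Scd1 (stearoyl-CoA desaturase) at -0.02 (SE 0.33) and Acly (ATP citrate lyase) at -0.39 (SE 0.60). Fasn was 1736, 1489, 5140, 2735 and 4440 TPM in NCAC and 1826, 2198, 5133, 2977 and 2410 TPM in mock libraries, so both groups span about the same range.

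Triglyceride synthesis (11 genes) had a median log2 change of 0.13 (-0.18 without mock replicate 2 and NCAC replicate 3), with Dgat1, which adds the last fatty acid, at 0.48 (SE 0.19), under an unadjusted limma p of 0.05. Pck1, which supplies the glycerol backbone, had 0.24 (SE 0.31). Cholesterol synthesis (18 genes) had a median of -0.21. Insulin signalling (16 genes) had a median of 0.08, with the insulin receptor substrate Irs2 at 0.57 (SE 0.27). None of the genes of these 3 lists was called.

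**Figure D3:**
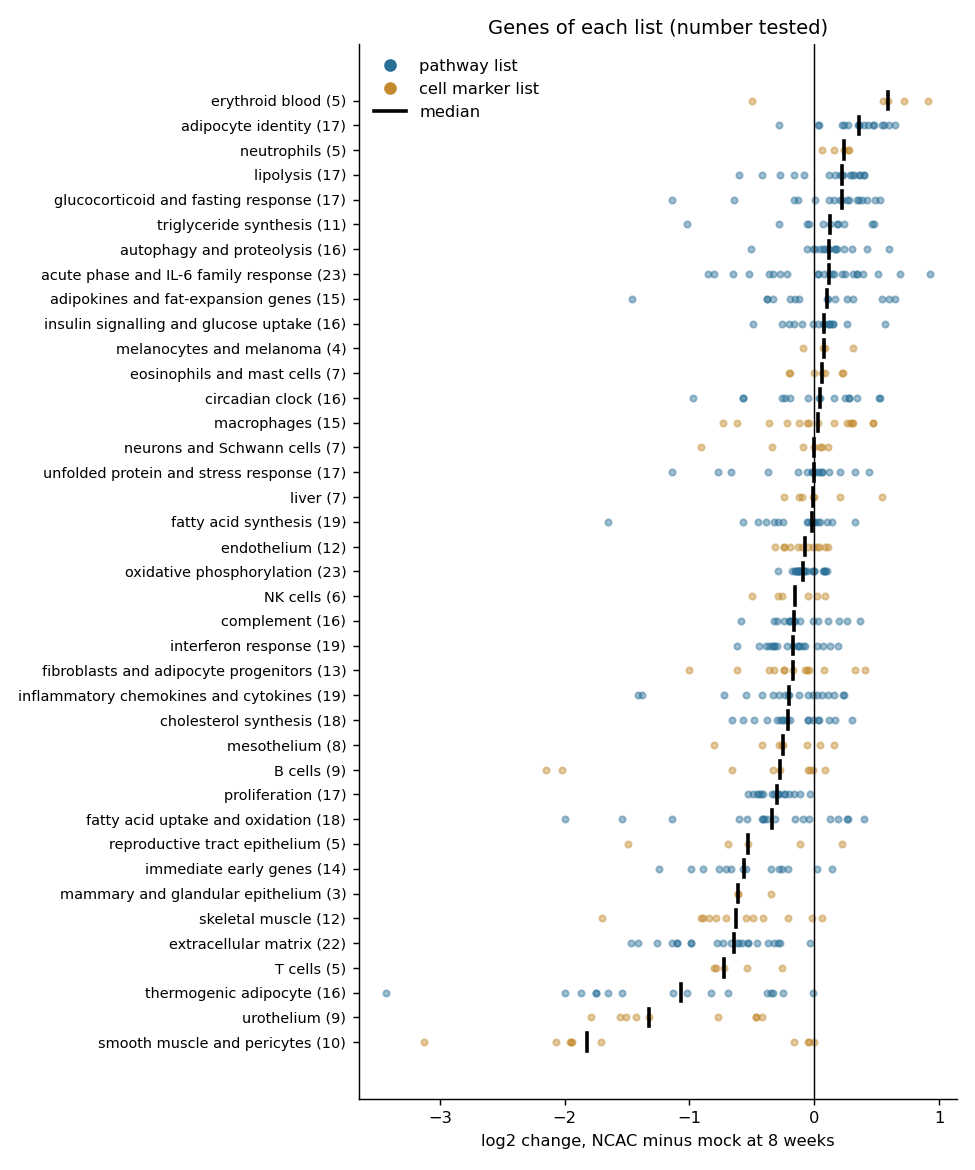
Log2 change of NCAC against mock fat at 8 weeks for each tested gene of 39 lists; each point is a gene, the black bar is the list's median, and the number tested is in parentheses. Medians run from -1.82 for smooth muscle and pericytes to 0.59 for erythroid blood, and no gene shown was called.

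The thermogenic adipocyte list had a median log2 change of -1.07, and all 16 tested members were negative, but 0 were called and 0 had an unadjusted limma p under 0.05. Ucp1, the uncoupling protein that turns fuel into heat (chromosome 8, 83290352 to 83298452 on GRCm38), was 12.1, 0.577, 475, 5.32 and 17.0 TPM in NCAC and 3.21, 150, 2046, 75.3 and 1610 TPM in mock libraries. Mock replicates 3 and 5 were the highest and NCAC replicate 3 the next, and the log2 change of -3.43 had an SE of 1.82. Cpt1b, the muscle and brown fat form of the enzyme that brings fatty acids into mitochondria, was 4.49, 2.80, 50.7, 4.61 and 3.97 TPM in NCAC and 5.57, 21.7, 140, 11.1 and 118 TPM in mock libraries. The same 3 libraries were high for Otop1 (13.0 TPM in NCAC replicate 3, 41.2 and 35.7 TPM in mock replicates 3 and 5) and for Elovl3, an elongase of brown fat. The list's median stayed negative, from -1.62 to -0.74, in all 23 alternative settings tried. None of these settings left out mock replicates 3 and 5 together. Averaged over the list, log2(TPM + 1) was 6.09 and 5.9 in mock replicates 3 and 5. It was 2.66, 4.18 and 3.71 in mock replicates 1, 2 and 4, and 2.37 to 5.28 in NCAC libraries.

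Fatty acid uptake and oxidation (18 genes) had a median of -0.34, with 0 called and 0 at an unadjusted limma p under 0.05. Pdk4, which spares glucose during fasting, had -1.14 (SE 0.55), with 134 TPM in NCAC replicate 3 against 39.7 to 52.7 TPM in the other NCAC libraries, and 58.7 to 421 TPM in mock libraries. Nuclear-encoded oxidative phosphorylation subunits had the narrowest range of the pathway lists, with log2 changes from -0.29 to 0.10 and all 23 intervals within 2-fold. Uqcrc1, a complex III subunit, held the lowest value, -0.29 (SE 0.24).

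**Figure D4:**
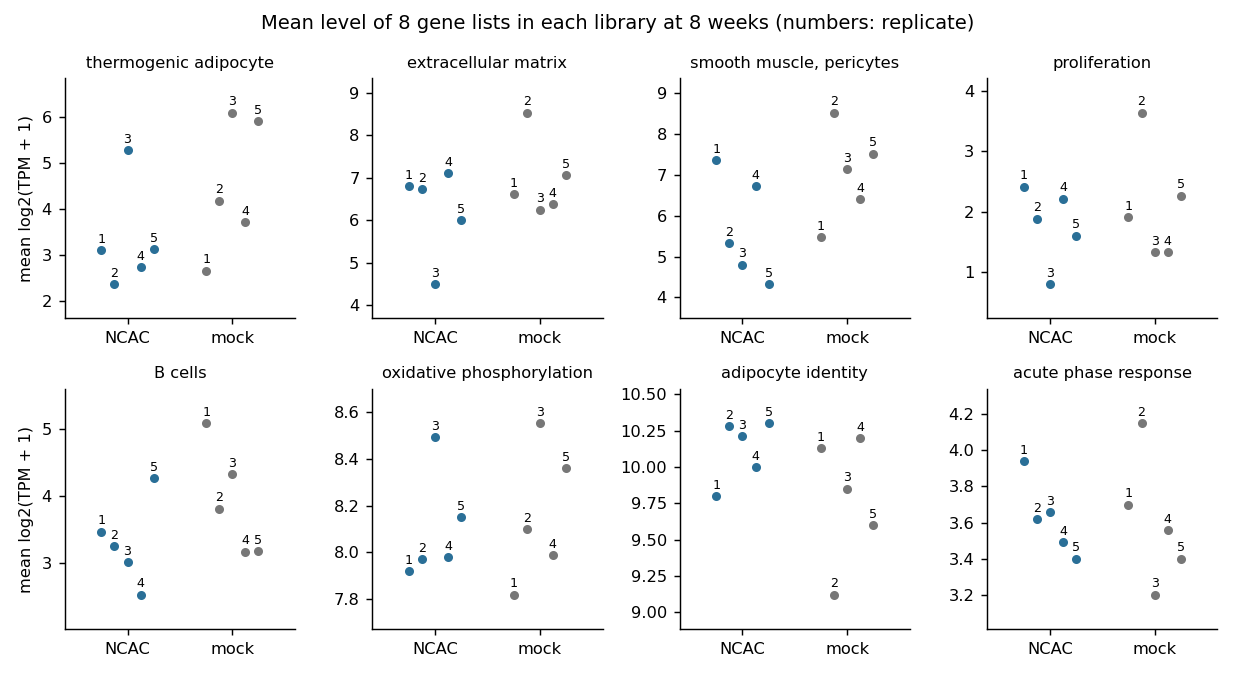
Mean log2(TPM + 1) over the members of 8 lists in each NCAC and mock library at 8 weeks, with the replicate number above each point. Mock replicates 3 and 5 and NCAC replicate 3 are high for thermogenic genes, mock replicate 2 is highest for matrix, smooth muscle and proliferation genes, and the groups overlap in every panel.

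The direction of the extracellular matrix list depended on 2 libraries. All 22 had a negative log2 change with a median of -0.64, 0 were called, and 0 had an unadjusted limma p under 0.05. Col1a1 (type I collagen, the chief fibre of the matrix) was 208, 180, 12.2, 303 and 85.4 TPM in NCAC and 128, 1548, 166, 112 and 459 TPM in mock libraries. Mock replicate 2 was the highest and NCAC replicate 3 the lowest, and without these 2 libraries the list's median became 0.12. Col6a3, a type VI collagen chain, had -1.47 (SE 0.76) and Timp1, an inhibitor of matrix proteases, -1.14 (SE 0.61). Proliferation genes showed the same dependence, with 17 of 17 negative, a median of -0.30 with all libraries and of 0.30 without those 2, and 0 called.

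Smooth muscle and pericyte markers had the lowest median of all lists, -1.82, with 10 of 10 negative and 0 called. Without mock replicate 2 and NCAC replicate 3 the median was -0.89. Acta2, smooth muscle actin, was 1322, 215, 113, 903 and 88.9 TPM in NCAC and 279, 6018, 1461, 453 and 2041 TPM in mock libraries. Cnn1 (calponin) had -3.13 (SE 1.43). Markers of other tissues were high in some of the libraries high for this list but not in others, and their part in it was not tested. Mock replicate 2 was the highest for smooth muscle (14839 TPM summed over the list) and high for other tissue. Mock replicate 5, the next highest with 5464 TPM, had 10.5 TPM of urothelial, 3.44 TPM of reproductive tract and 115 TPM of skeletal muscle markers. NCAC replicate 1 (4192 TPM) followed with 506 TPM of reproductive tract markers, and mock replicate 3 (3786 TPM) with 151 TPM of urothelial markers. The 9 urothelial markers all had negative changes, with a median of -1.32 and summed levels of 6.70 to 26.6 TPM in NCAC and 10.5 to 151 TPM in mock libraries. Mock replicates 2 and 3 alone were above 90 TPM. Summed over 7 of these markers the level was 16.6 ± 7.66 TPM in NCAC and 57.5 ± 60.2 TPM in mock fat (SD, n = 5 each, log2 difference -1.15, exact two-sided permutation p = 0.23). Skeletal muscle markers summed to 20.3 to 520 TPM in NCAC and 17.4 to 1025 TPM in mock libraries, highest in NCAC replicate 3 and mock replicate 2. Reproductive tract epithelium markers were high in NCAC replicate 1 (506 TPM) and mock replicate 2 (1125 TPM), against 1.90 to 26.7 TPM in the other 8.

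Acute-phase and IL-6 family genes had a median log2 change of 0.12 over 23 tested genes of 25 listed, with 0 called. Itih4, a secreted acute-phase protein (chromosome 14, 30886476 to 30902353 on GRCm38), was 8.50, 3.47, 22.9, 3.62 and 6.32 TPM in NCAC and 3.13, 4.62, 5.84, 8.05 and 6.44 TPM in mock libraries. NCAC replicate 3 was the highest and the other 4 lay close to the mock range, with a log2 change of 0.34 (SE 0.43). Hp (haptoglobin) was 332, 906, 410, 792 and 291 TPM in NCAC and 771, 482, 168, 543 and 356 TPM in mock libraries, a log2 change of 0.25 (SE 0.44). Saa3, the serum amyloid A of fat and macrophages, had 0.93 (SE 0.54), Orm2 (orosomucoid) 0.51 (SE 0.24) and Serpina3m, a serine protease inhibitor, 0.69 (SE 0.33). Lcn2 (lipocalin-2) stood at 92.6 TPM in NCAC replicate 1 and 405 TPM in mock replicate 2, against 0.454 to 7.02 TPM in the other 8 libraries, and these are the libraries with the reproductive tract markers. Socs3, a feedback inhibitor of IL-6 signalling, had -0.85 (SE 0.36), the list's only member at an unadjusted limma p under 0.05.

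Glucocorticoid and fasting genes had a median log2 change of 0.22, with 13 of 17 positive and 0 called. Fkbp5, a chaperone induced by glucocorticoids, was 12.8, 10.4, 22.2, 14.7 and 7.41 TPM in NCAC and 6.64, 10.7, 7.82, 14.5 and 21.4 TPM in mock libraries, a log2 change of 0.16 (SE 0.33). Mt1, a metallothionein, had 0.49 (SE 0.28). Cdkn1a, a cell cycle inhibitor, had -0.64 (SE 0.27), the only member of the list at an unadjusted limma p under 0.05. Immediate early genes (14 tested) had a median of -0.56, with Fos at -1.24 (SE 0.55) and Nr4a1 at -0.89 (SE 0.37), both under an unadjusted p of 0.05. Without mock replicate 2 and NCAC replicate 3 this list's median was -0.14. Fos was 0.733 to 9.94 TPM in NCAC and 3.66 to 20.8 TPM in mock libraries.

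Immune and inflammatory lists had no called gene either. Inflammatory chemokines and cytokines (19 tested) had a median of -0.20. Ccl8, a chemokine that attracts monocytes, was 37.7, 15.1, 7.35, 31.2 and 2.91 TPM in NCAC and 36.6, 212, 9.40, 22.4 and 43.4 TPM in mock libraries, a log2 change of -1.41 (SE 0.81), with mock replicate 2 the highest. Its neighbour Ccl7 had -1.38 (SE 0.57), under an unadjusted limma p of 0.05. Interferon-response genes had a median of -0.17, with Iigp1, an interferon-induced GTPase, at -0.62 (SE 0.35), and complement genes -0.16, with C3 at 0.37 (SE 0.37). Macrophage markers had a median of 0.03 over 15 genes, with Adgre1 (F4/80) at -0.04 (SE 0.40), and endothelial markers -0.07 over 12, with Kdr, a receptor for VEGF, at -0.24 (SE 0.15). Without mock replicate 2 and NCAC replicate 3 these medians were all positive, at 0.04 for chemokines and cytokines, 0.03 for interferon-response genes, 0.39 for complement, 0.48 for macrophages and 0.12 for endothelium.

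Of 10 T cell markers 5 were high enough to be tested, with a median of -0.72, and the 10 summed to 3.08 to 17.0 TPM in NCAC and 4.88 to 43.2 TPM in mock libraries. The highest sum was that of mock replicate 1, and without this library the list's median was -0.28. Cd3g, part of the T cell receptor complex, was 0 to 0.481 TPM in NCAC and 0.107 to 4.88 TPM in mock libraries, highest in mock replicate 1, which also had the highest antibody level. Melanocyte and melanoma markers summed to 10.5 to 33.6 TPM in NCAC and 7.32 to 18.0 TPM in mock libraries, with 4 of 7 tested and a median log2 change of 0.08. The clock, stress, autophagy and neutrophil lists had medians of 0.05, 0.00, 0.12 and 0.24, with 0 called. Among them Atf4, a stress-response factor, had -0.37 (SE 0.16), Bhlhe40, a clock repressor, -0.97 (SE 0.44), and the mitophagy receptor Bnip3 0.60 (SE 0.28).

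Genes called in cachectic fat were also read in NCAC fat. In CAC against mock fat at 6 weeks, which shares no library with the 8-week groups, 52 genes were called (0.357% of 14571), 45 higher and 7 lower (0.309% and 0.048%). In NCAC against mock fat at 8 weeks the 45 had a median log2 change of 0.08, from -0.80 to 0.84, whereas their median in CAC fat at 6 weeks was 2.03. Of the 45, 33 had a positive and 12 a negative change in NCAC fat, against 37.1% positive over all genes tested. This difference in share was not tested. The 7 had a median of 0.10, whereas theirs in CAC fat was -1.95. For 47 of the 52 genes the 95% interval in NCAC fat at 8 weeks left out the change estimated in CAC fat at 6 weeks. For Itih4 that change was 5.99 and the NCAC interval ran from -0.60 to 1.28. For Hp the change was 4.31 and the interval ran from -0.72 to 1.21, and for Fkbp5 the change was 2.53 and the interval ran from -0.57 to 0.89. The intervals of the other 5 genes (Gm20186, Gm6594, Hsd17b10, Nmb and Prnd) included the CAC change. The CAC changes at 6 weeks also chose the genes, so they may be overestimated, and their own SEs were not used here. They come from another week and other mock libraries, so the count of 47 is a description and not a test. Of the 52, 1 gene, Serpina3e-ps, had an unadjusted limma p under 0.05 (log2 change 0.42), against 1.24% of all genes tested. No gene of the 52 separated the NCAC from the mock libraries, but over all genes only 0.0892% did so upward and 0.0686% downward. At such shares few or none are expected among 52 genes, so neither the count of unadjusted p-values nor that of separated genes sets these genes apart from the rest.

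**Figure D5:**
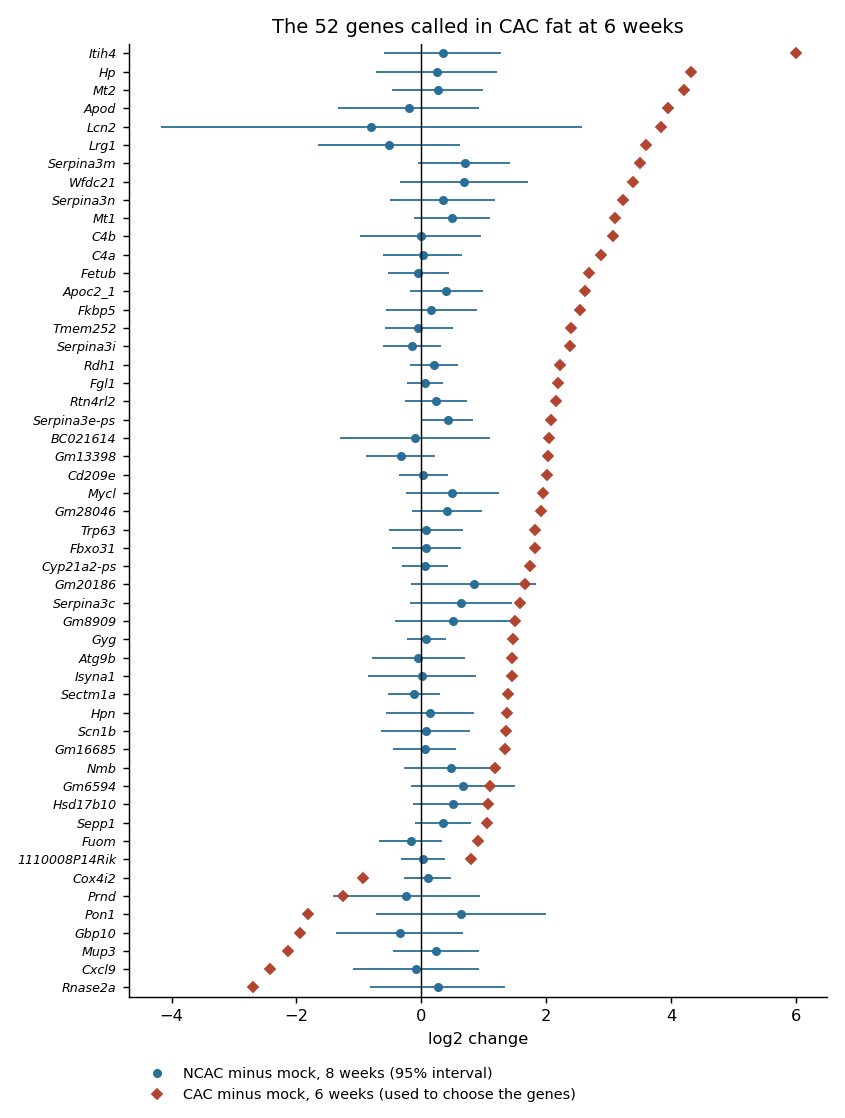
Log2 change of the 52 genes called in CAC against mock fat at 6 weeks, shown for CAC at 6 weeks (diamonds, the values that chose the genes) and for NCAC against mock at 8 weeks (points, with 95% limma intervals). The NCAC points lie between -0.80 and 0.84 around 0, and 47 of 52 intervals leave out the diamond.

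The NCAC effect at 8 weeks was next set against that at 6 and at 2 weeks. It was not compared with that at 4 weeks. In a test of the difference between 8 and 6 weeks, on 20 libraries with none shared between the weeks, limma called 0 of 14577 genes, with 213 at an unadjusted p under 0.05 (1.46%). Between 8 and 2 weeks it called 0 of 14576, with 182 at an unadjusted p under 0.05 (1.25%). Ucp1 had a difference between 8 and 6 weeks of -7.06 (SE 2.64), and its levels were 102 ± 209 TPM in NCAC and 777 ± 973 TPM in mock fat at 8 weeks and 579 ± 487 TPM in NCAC and 391 ± 740 TPM in mock fat at 6 weeks (SD, n = 5 each). The antibody genes had negative differences at 8 against 2 weeks, of -3.00 (SE 0.86) for Jchain and -2.94 (SE 0.95) for Igkc. Igkc averaged 60.2 ± 48.9 TPM in NCAC and 314 ± 315 TPM in mock fat at 8 weeks, and 57.7 ± 46.6 TPM in NCAC and 25.2 ± 9.90 TPM in mock fat at 2 weeks. Itih4 averaged 8.96 ± 8.06 TPM in NCAC and 5.62 ± 1.86 TPM in mock fat at 8 weeks, and 3.31 ± 0.531 TPM in NCAC and 7.55 ± 2.35 TPM in mock fat at 6 weeks, a difference of 1.29 (SE 0.49) that was not called.

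The cell-bearing arms did differ at 8 weeks, in a comparison that shares its 5 NCAC libraries with the one above. Between 7 CAC and 5 NCAC libraries 77 of 14577 genes were called (0.528%), 50 that rose (0.343%) and 27 that fell (0.185%) in CAC fat, and 2342 (16.1%) had an unadjusted limma p under 0.05. Itih4 rose, with 151 at the lowest, 1133 at the median and 1336 TPM at the highest in CAC libraries, against 3.47 to 22.9 TPM in NCAC libraries, and limma put the log2 change at 6.54 (SE 0.55) with an adjusted p = 0.000306. Lyz1, a lysozyme, fell, with 1.61 at the lowest, 4.05 at the median and 5.92 TPM at the highest in CAC libraries, against 13.5 to 51.7 TPM in NCAC libraries, and limma put the log2 change at -2.56 (SE 0.32) with an adjusted p = 0.0059. The groups do not overlap for either gene. Apod (apolipoprotein D), Serpina3k, Ccl8, Fgl1 and Fkbp5 rose by 3.60 to 4.07, and Npr3, which clears natriuretic peptides, Alb (albumin), Rnase2a and Smim5 had log2 changes of -3.32 to -2.13. Of the acute-phase list 8 of 23 genes were called higher, among them Hp with 3.70 (SE 0.70), and of the thermogenic list 3 of 16. CAC replicate 3 was the lowest CAC library for Itih4 and for Hp, where its 582 TPM lay within the NCAC range.

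The number of calls between CAC and NCAC fat depended on the fit and on which libraries enter. With the same libraries 1 gene was called with the urothelial sum as a covariate, 220 after median-ratio rescaling (148 higher, 72 lower) and 3061 with library weights. With the replicate number as a block 2 genes were called. In that fit CAC replicates 6 and 7, which have no NCAC library of their number, add nothing to the change. The block and the loss of these libraries cannot be told apart there. Urothelial markers summed over 7 genes exceeded 100 TPM in 5 of the 7 CAC libraries (117 to 242 TPM) and stood at 6.48 to 26.1 TPM in NCAC libraries. Without those 5 libraries only CAC replicates 2 and 3 remained against the 5 NCAC libraries. In that fit 0 genes were called, with 418 at an unadjusted limma p under 0.05, and Itih4 kept a log2 change of 5.28. With so few CAC libraries, the loss of calls cannot be assigned to urothelial content. Without NCAC replicate 3, the library with low leptin and high Ucp1, 1253 genes were called, and without CAC replicate 3, 405. Fewer were called without any other NCAC replicate (7 without replicate 2, 8 without 4 or 5, 14 without 1) or without CAC replicate 4 or 7 (8 each), 6 (23), 1 (24) or 5 (30).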

How the data were processed

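The authors deposited 1 table of TPM with 47643 gene symbols and 62 libraries. Per the labels' protocols, Trizol was used for extraction, a stranded TruSeq kit for the mRNA libraries and a NovaSeq instrument for sequencing. Reads were placed on mm10, per the submitters' processing notes, and neither aligner nor counting tool is stated, so near-identical genes are uncertain individually. The labels call the replicates biological, and the p-values measure the spread between these samples.

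Genes were kept where the mean over all 62 libraries reached 0.5 TPM. Each comparison was fitted to the log2(TPM + 1) values of its own groups with limma 3.58.1 in R 4.3.3 (empirical Bayes with trend and robust prior, two-sided, Benjamini-Hochberg over all genes tested, called at adjusted p under 0.05). With a pseudocount of 1, changes of low genes are understated. SE is limma's standard error of a log2 change. The fits were checked on simulated data with noise drawn independently for each gene. Shifts shared by many genes of a library were not simulated, so no power for these libraries is drawn from that check. Exact permutation tests used SciPy 1.17.1. Coordinates are from GENCODE M21 by symbol.

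Named genes are, per direction, up to 12 with the smallest unadjusted p at 10 TPM or more in the group with the higher mean (called genes by size first, of which there were none), up to 2 per list, and 19 genes always named. For CAC against NCAC they are the 5 called genes of largest change per direction. Predicted genes, symbols ending in Rik or in -ps, and mitochondrially encoded genes were skipped by this rule. Rpl37rt, annotated as a transcribed processed pseudogene, passed it. Other genes named, including those of the 6-week set, were picked with their values in view. The members and lists were chosen with earlier results of these data known.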

Additional observations from a re-analysis of the deposited data

Results flagged for a closer look

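A library that stands apart from the rest of its group was looked for in 195 groups of values in log2(TPM + 1), and 17 were found. Chance flags about 1 in 20 groups. No explanation was tested for any of them. NCAC replicate 3 was the highest NCAC library for Cpt1b (5.69), Otop1 (3.81), Mb (4.38), Pdk4 (7.08) and Azgp1 (4.24). NCAC replicate 1 was the highest for Ighg2c (1.43), Ighg3 (1.95), Ighg2b (0.224) and Pprc1 (3.70), and the lowest for Lipe (9.02). Mock replicate 2 was the highest mock library for Lcn2 (8.67) and Pprc1 (4.07) and the lowest for Pnpla2 (9.82) and Scd1 (12.6). CAC replicate 3 was the lowest CAC library for Itih4 (7.24), Hp (9.19) and Fkbp5 (4.24), genes that rose in CAC against NCAC fat.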

How the results depend on the processing

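For NCAC against mock fat at 8 weeks 0 genes were called in all 23 alternatives (another pseudocount, 3 filters, 2 scalings, 1 fit over all libraries, library weights, another prior, the replicate block, urothelial markers as a covariate or a ground for exclusion, each library left out, and mock replicate 2 with NCAC replicate 3 left out, the last chosen after seeing the data). Unadjusted counts ran from 64 to 714, leaving out 1 library gave 0 calls each time, and the smallest adjusted p was 0.8236. Of 81 named genes, 11 changed the sign of their uncalled estimate in 51 of 1858 values. The median of all genes was -0.10 without mitochondrially encoded genes and 0.00 after median-ratio rescaling. The difference between 8 and 2 weeks had 6 calls with library weights and 0 in the other 31 alternatives, and that between 8 and 6 weeks 0 in all 32. The mitochondrial share differed by -5.22 to 0.20 percentage points when 1 library was left out, positive without mock replicate 3 and largest without mock replicate 2.

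For CAC against NCAC fat the 77 calls became 34 with no filter, 206 without mitochondrially encoded genes (91 higher, 115 lower), 220 after median-ratio rescaling (148 higher, 72 lower), 611 with all 62 libraries, 3061 with library weights, 2 with the replicate block, 1 with urothelial markers as a covariate and 0 without libraries rich in them. The last of these settings kept only CAC replicates 2 and 3. Leaving out 1 library gave 7 to 1253 calls. The cause was not tested. Itih4 kept its call in 22 of 24 alternatives, all but the replicate block and the exclusion of libraries rich in urothelial markers, and Lyz1 in 21. Hp kept it in 10, Fkbp5 in 11 and Ccl8 in 13.

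Replicate numbers did not meet the pairing criterion (every correlation of deviations over 0.1): same-numbered NCAC and mock libraries had correlations from -0.453 to 0.429, and CAC and NCAC libraries 0.526, 0.371, -0.0396, 0.0606 and 0.238 for replicates 1 to 5. Of these CAC replicates 1, 2 and 5 correlated best with their own number and 3 and 4 did not, a hint from the data and not the design. With the replicate block NCAC against mock had 0 calls (201 at an unadjusted p under 0.05), as did both differences between weeks, the mitochondrial share had an exact sign-flip p of 0.625 and the urothelial sum one of 0.375. Unknown read depth limits what can be said of genes near 0 TPM.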
